A study of Mus musculus with 2 samples.

Results

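The 8 genes described here encode the cytokine TNF (Tnf) and its receptors (Tnfrsf1a and Tnfrsf1b), the related cytokine TWEAK (Tnfsf12) and its receptor Fn14 (Tnfrsf12a), and 3 products that NF-kB signaling induces and that act back on it (Nfkbia, Tnfaip3 and Birc3). They were chosen by gene symbol for their place in the pathway, 8 of the 32285 genes in the count matrices. The rule used no measured value, but the genes were chosen with earlier results of these data known. By the labels, a male wildtype C57BL/6J mouse, 19 weeks of age, underwent left-sided ischemia for 27 min, and both kidneys were collected after 24 h of reperfusion for single cell RNA sequencing (scRNAseq). The extraction protocol speaks of mice, so whether both kidneys came from 1 animal is not certain. One library came from the ischemic kidney and 1 from the contralateral, uninjured kidney, which is called control here. The control was thus the other kidney of an operated animal and not a kidney from an unoperated one, and the same digestion is given for both. With 1 library per condition, the effect of ischemia and any other difference between the libraries cannot be told apart, and no test between conditions was possible.

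TNF binds Tnfrsf1a, which most cells carry, and Tnfrsf1b, which is best known from leukocytes and endothelium. TWEAK binds Fn14, a small receptor known to be induced in injured epithelium. Both routes release NF-kB subunits from their inhibitors, and the subunits then enter the nucleus and switch on genes for chemokines, adhesion molecules and survival factors. Among the genes switched on are some that act back on the signal. Nfkbia encodes the inhibitor IkBa and Tnfaip3 a ubiquitin-editing enzyme that disassembles receptor complexes. Birc3 encodes a ubiquitin ligase found in the complexes of the TNF and TWEAK receptors.

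The promoters of the 3 feedback genes are shown because NF-kB is known to act on their genes directly, and because their transcripts were higher together in several tubule segments, as described below. The stretches end at the annotated transcript start or, for Birc3, short of it where annotated exons begin, and are given 5′ to 3′ on the minus strand, on which all 3 genes lie. They come from RefSeq on GRCm38. The Tnfaip3 stretch was cut at its far end, where annotated exons lie, and falls inside the annotated span of the gene. Capitals mark matches to GGANNTTCC or GGGANTTCC, forms of the kB motif, which were searched on both strands.
Nfkbia, chr12:55492648-55492897: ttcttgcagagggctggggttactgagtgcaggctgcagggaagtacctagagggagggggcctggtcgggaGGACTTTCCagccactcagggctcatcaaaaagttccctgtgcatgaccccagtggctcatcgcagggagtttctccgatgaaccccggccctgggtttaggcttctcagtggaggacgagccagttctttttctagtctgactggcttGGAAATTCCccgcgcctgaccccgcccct
Tnfaip3, chr10:19015411-19015547: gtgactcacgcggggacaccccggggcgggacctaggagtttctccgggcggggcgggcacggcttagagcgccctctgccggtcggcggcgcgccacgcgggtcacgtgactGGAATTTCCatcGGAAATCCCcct
Birc3, chr9:7873187-7873420: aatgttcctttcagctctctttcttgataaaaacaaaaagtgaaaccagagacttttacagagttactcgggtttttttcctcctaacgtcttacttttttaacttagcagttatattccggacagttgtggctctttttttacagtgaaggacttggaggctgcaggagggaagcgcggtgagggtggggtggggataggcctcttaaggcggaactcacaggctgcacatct

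Nfkbia held 2 matches, at bases 178 to 170 and 29 to 21 upstream of the start, and the second read the same motif on both strands. Tnfaip3 held 2 matches in the window shown, at bases 24 to 16 and 12 to 4 upstream. In the Tnf promoter 1 match, GGAGATTCC, lay at bases 212 to 204 upstream. The letters were not found in the windows of Birc3, Tnfrsf1a, Tnfrsf1b and Tnfrsf12a or in a second Tnfaip3 window. Of 32851 promoter windows of 250 bases, 3.59% held GGANNTTCC, 1.43% held GGGANTTCC and 4.96% held either. Of the 8 members 7 had a RefSeq promoter window, 8 windows in all. A match is a description of the letters and was not tied to binding in these cells.

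The genes lie on 7 chromosomes of GRCm38, with Tnf (chr17:35199381-35202007) and Tnfrsf12a (chr17:23675445-23677468) on the same one. Tnfrsf1a spans chr6:125349362-125362484, Tnfrsf1b chr4:145213463-145246870 and Tnfsf12 chr11:69686250-69695849. Tnfaip3 spans chr10:19000910-19015657, Nfkbia chr12:55489410-55492647 and Birc3 chr9:7848699-7873186, with its paralog Birc2 11634 bases away. Tnfsf12 overlaps the read-through gene Tnfsfm13 on its own strand, so counts there depend on how shared reads were assigned, and the other members overlap no annotated gene. In the kept cells Tnf was counted by 877 unique molecular identifiers (UMIs), Tnfrsf1b by 1029, Tnfaip3 by 2140, Tnfsf12 by 4581, Birc3 by 5178, Tnfrsf1a by 11587, Nfkbia by 18681 and Tnfrsf12a by 20977. The depth is thus lowest for the cytokine Tnf and for Tnfrsf1b.

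The libraries held 12586 control and 13116 ischemia cells after filtering, with 124679362 and 128733541 UMIs and medians of 3839 and 2138.5 UMIs per cell. Clustering without the 8 members and the pathway genes gave 18 clusters, of which 13 cell types were named from marker genes and 2 clusters stayed unnamed. The larger unnamed cluster held 36.6% of control and 44.6% of ischemia cells, but 4.73% and 4.36% of all UMIs. The other held 6.79% and 5.65% of cells. The named types thus leave out a large part of the cells. The names are written as "-like" and cover proximal tubule (PT), thin limb, thick ascending limb (TAL), distal convoluted and connecting tubule (DCT/CNT), collecting duct principal (CD-PC) and intercalated (CD-IC) cells, podocytes, endothelial cells (EC), pericytes, macrophages, neutrophils, T/NK cells and B cells. No marker list was used for dendritic cells, so these were not named apart and may lie among the macrophage-like cells. Macrophage-like cells numbered 289 in control and 580 in ischemia (2.30% and 4.42% of cells), and neutrophil-like cells 33 and 208 (0.262% and 1.59%). The summed level of the named type's own markers was lower in ischemia in PT-like cells (11645 and 6539 CPM), thin limb-like cells (13693 and 8526 CPM), TAL-like cells (20415 and 9550 CPM), DCT/CNT-like cells (16975 and 9856 CPM), CD-PC-like cells (7090 and 4428 CPM) and macrophage-like cells (25657 and 17988 CPM). It was higher in neutrophil-like cells (35485 and 68500 CPM) and pericyte-like cells (11813 and 16887 CPM). The CD-PC-like cells also held DCT/CNT markers, at 18471 and 9196 CPM, in control above the level in DCT/CNT-like cells. CD-IC markers in them stood at 3088 and 1904 CPM. Results for CD-PC-like cells are thus not those of principal cells alone. Of the barcodes kept, 58 occurred in both libraries. Levels below are CPM, the UMIs of a gene summed over the cells of a type, divided by all UMIs of those cells and multiplied by 1000000. Ratios are ischemia over control with exact 95% intervals, which cover counting error only and not the spread between animals.

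Tnf was found mostly in leukocyte-like cells, and most of it in macrophage-like cells of both kidneys. In macrophage-like cells Tnf stood at 129 CPM in control (95% interval 113 to 146, 232 UMIs) and at 77.1 CPM in ischemia (69.9 to 84.9, 418 UMIs). The ratio was 0.599 (0.509 to 0.707), lower in the ischemic kidney. T/NK-like cells held 62.4 and 47.3 CPM (ratio 0.758, 0.391 to 1.47) and neutrophil-like cells 35.4 and 48.1 CPM (ratio 1.36, 0.737 to 2.70), and both intervals hold 1. The neutrophil ratio turned to 0.630 when the libraries were clustered without integration and to 0.634 with a gate on marker UMIs, settings with 19 and 18 control cells. TAL-like cells were taken as the comparison type for low counts, though TNF production by the thick ascending limb has been described, so they are not a sure background. They held Tnf at 0.196 and 1.51 CPM (2 and 19 UMIs), a ratio of 7.74 (1.87 to 68.5). PT-like cells had 0 Tnf UMIs in 3865 control cells, which allows up to 0.0776% of cells with a UMI, and 6 UMIs in ischemia. The interval of Tnf in macrophage-like cells lay apart from the next type in both kidneys, while T/NK-like and neutrophil-like cells were not told apart. Every other type lay at or below 2.75 CPM, and of the UMIs behind that highest value, in CD-PC-like cells of the ischemic kidney, 5 cells held 56.7%. Macrophage markers summed to 58.0 CPM in control and 90.9 CPM in ischemia in those cells, and their part in it was not tested.

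Macrophage-like cells carried 80.3% of the Tnf UMIs of the control library (232 of 289, exact interval 75.2 to 84.7) and 71.1% in ischemia (418 of 588, 67.2 to 74.7). They held 1.45% and 4.21% of all UMIs of the libraries. The share of neutrophil-like cells was 4.50% in control and 10.0% in ischemia, and that of T/NK-like cells 6.92% and 3.57%. CD-PC-like cells held 2.42% and 5.10%, TAL-like cells 0.692% and 3.23%. The Tnf level over all cells was 2.32 CPM in control and 4.57 CPM in ischemia. The ischemic library therefore held more Tnf in total and less per UMI of macrophage-like cells. Of macrophage-like cells thinned to 1000 UMIs, 9.54% in control and 4.41% in ischemia had a Tnf UMI, against 0% and 0.205% of TAL-like cells. Before thinning the shares were 34.3% and 21.2%, with TAL-like cells at 0.403% and 2.65%.

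**Figure D1:**
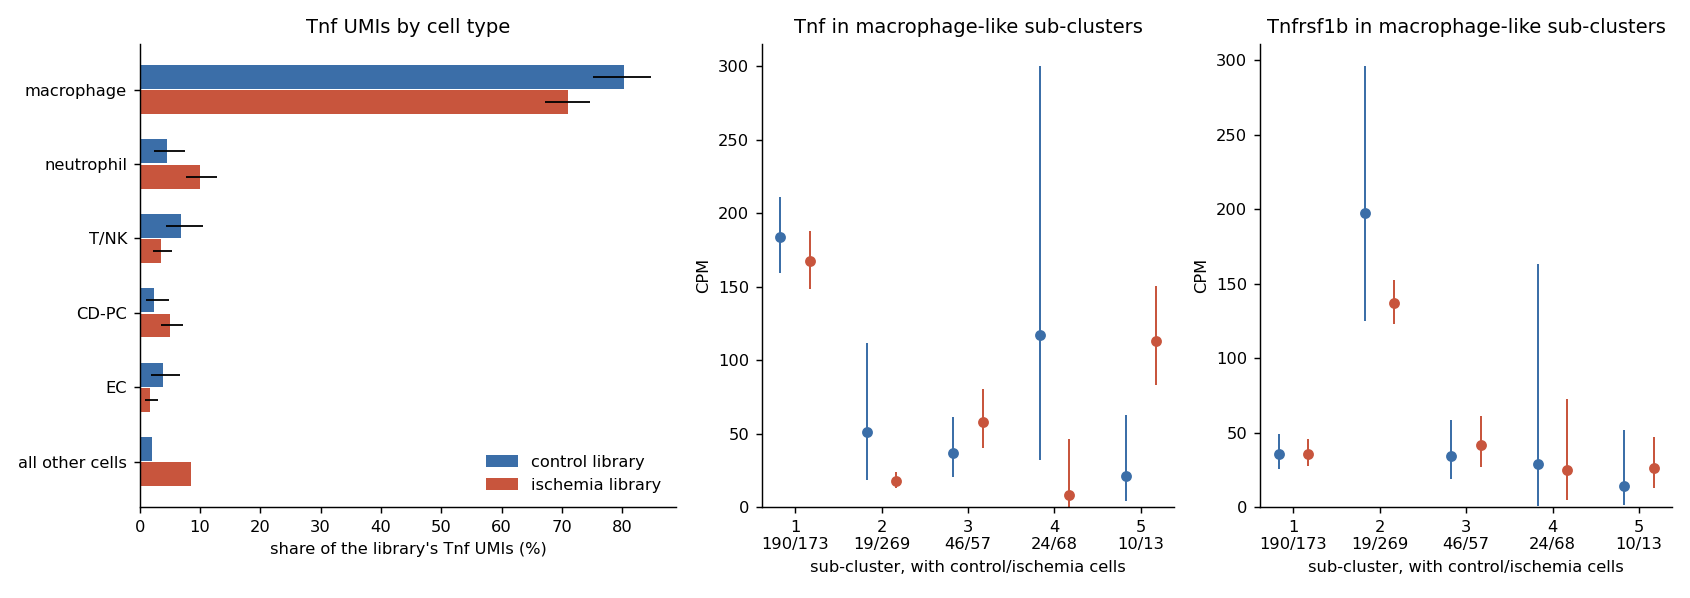
Sources of Tnf transcript: shares of each library's Tnf UMIs by cell type, and Tnf and Tnfrsf1b levels in CPM in the macrophage sub-clusters, with exact 95% intervals (none is drawn for all other cells). Macrophage-like cells hold 80.3% of the control and 71.1% of the ischemia Tnf UMIs, and sub-cluster 1 has the highest Tnf level, 184 and 168 CPM, where sub-cluster 2 has the highest Tnfrsf1b level, 197 and 137 CPM.

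Macrophage-like cells also differed in makeup between the kidneys. Clustered by themselves, they fell into 5 sub-clusters. Sub-cluster 1, led by Cd209f, Cxcl13 and Ccl8, held 190 control and 173 ischemia cells, and its Tnf level was 184 and 168 CPM (ratio 0.911, 0.759 to 1.1). Sub-cluster 2, led by S100a8, Chil3 and Vcan, held 19 control and 269 ischemia cells. Its Tnf level was 51.5 CPM (6 UMIs) and 17.7 CPM (45 UMIs), a ratio of 0.344 (0.146 to 0.988). In the ischemic kidney Tnf in sub-cluster 1 was 9.45 times that in sub-cluster 2 (6.88 to 13.2), and in control 3.57 times (1.61 to 9.85). Sub-cluster 3, led by Xcr1, Ccr7 and Ccl22, held 46 and 57 cells, with Tnf at 37.2 and 58.0 CPM (ratio 1.56, 0.832 to 3.06). Whether sub-cluster 3 holds dendritic cells was not tested. Sub-clusters 4 and 5 carried tubule genes among their leading genes, and whether they hold doublets was not tested. Sub-cluster 4 held 4 and 1 Tnf UMIs (ratio 0.0709, 0.00144 to 0.716). Sub-cluster 5, of 10 control and 13 ischemia cells, held 3 and 47 Tnf UMIs (ratio 5.25, 1.69 to 26.4). With each sub-cluster of the ischemic kidney weighted by its share of UMIs in control, a calculation chosen after seeing the data, the macrophage level was 126 CPM against 129 CPM, a ratio of 0.98. That value joins sub-cluster ratios on both sides of 1 and does not show an equal level within each. The mean over cells gave 0.494.

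Macrophage-like cells with a Tnf UMI after thinning (27 in control and 25 in ischemia) were compared with those without. With so few cells on 1 side, the intervals do not cover the spread between cells. Nfkbia stood at 605 CPM against 326 CPM in control (ratio 1.86, 1.47 to 2.33) and at 1182 against 446 CPM in ischemia (2.65, 2.34 to 3.0). Tnfaip3 was likewise higher in the Tnf-positive cells, by 2.61 times in control (1.44 to 4.47) and 2.31 times in ischemia (1.56 to 3.32). Birc3 differed from both, with ratios of 0.959 (0.499 to 1.69) and 0.435 (0.198 to 0.834). Within sub-cluster 1 alone the Nfkbia ratios were 1.64 (1.29 to 2.08) and 1.96 (1.68 to 2.28), so the Nfkbia difference was also present among cells of 1 sub-cluster. Tnfaip3 there had ratios of 2.58 in control (1.38 to 4.6) and 1.49 in ischemia (0.950 to 2.26), and the latter interval holds 1.

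Tnfsf12, the TWEAK gene, had another distribution from Tnf and was led by stromal and glomerular cells. Podocyte-like cells held 117 CPM in control and 121 CPM in ischemia, from 111 and 40 UMIs. Pericyte-like cells followed with 85.2 and 70.3 CPM (ratio 0.825, 0.661 to 1.03, or 1.13 at a higher clustering resolution) and EC-like cells with 60.4 and 51.9 CPM (0.858, 0.733 to 1.0). These 3 types kept the same order in both kidneys, each apart from the next by its counting interval. Macrophage-like cells held 28.3 and 30.8 CPM (ratio 1.09, 0.792 to 1.52), so the type that led for Tnf did not lead for Tnfsf12. PT-like cells were higher in ischemia, at 11.9 and 26.6 CPM (ratio 2.23, 2.05 to 2.42), and CD-PC-like cells at 3.64 and 7.62 CPM (2.09). PT-like cells contributed 50.9% of the Tnfsf12 UMIs in control and 62.5% in ischemia, where they held 57.6% and 52.8% of all UMIs. TAL-like cells were low, at 0.587 and 3.35 CPM (48 UMIs in both libraries), and DCT/CNT-like cells at 0.559 and 1.69 CPM. Of 7 types with at least 50 UMIs, 2 had a ratio whose interval lay above 1, 0 had one below and 5 held 1.

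**Figure D2:**
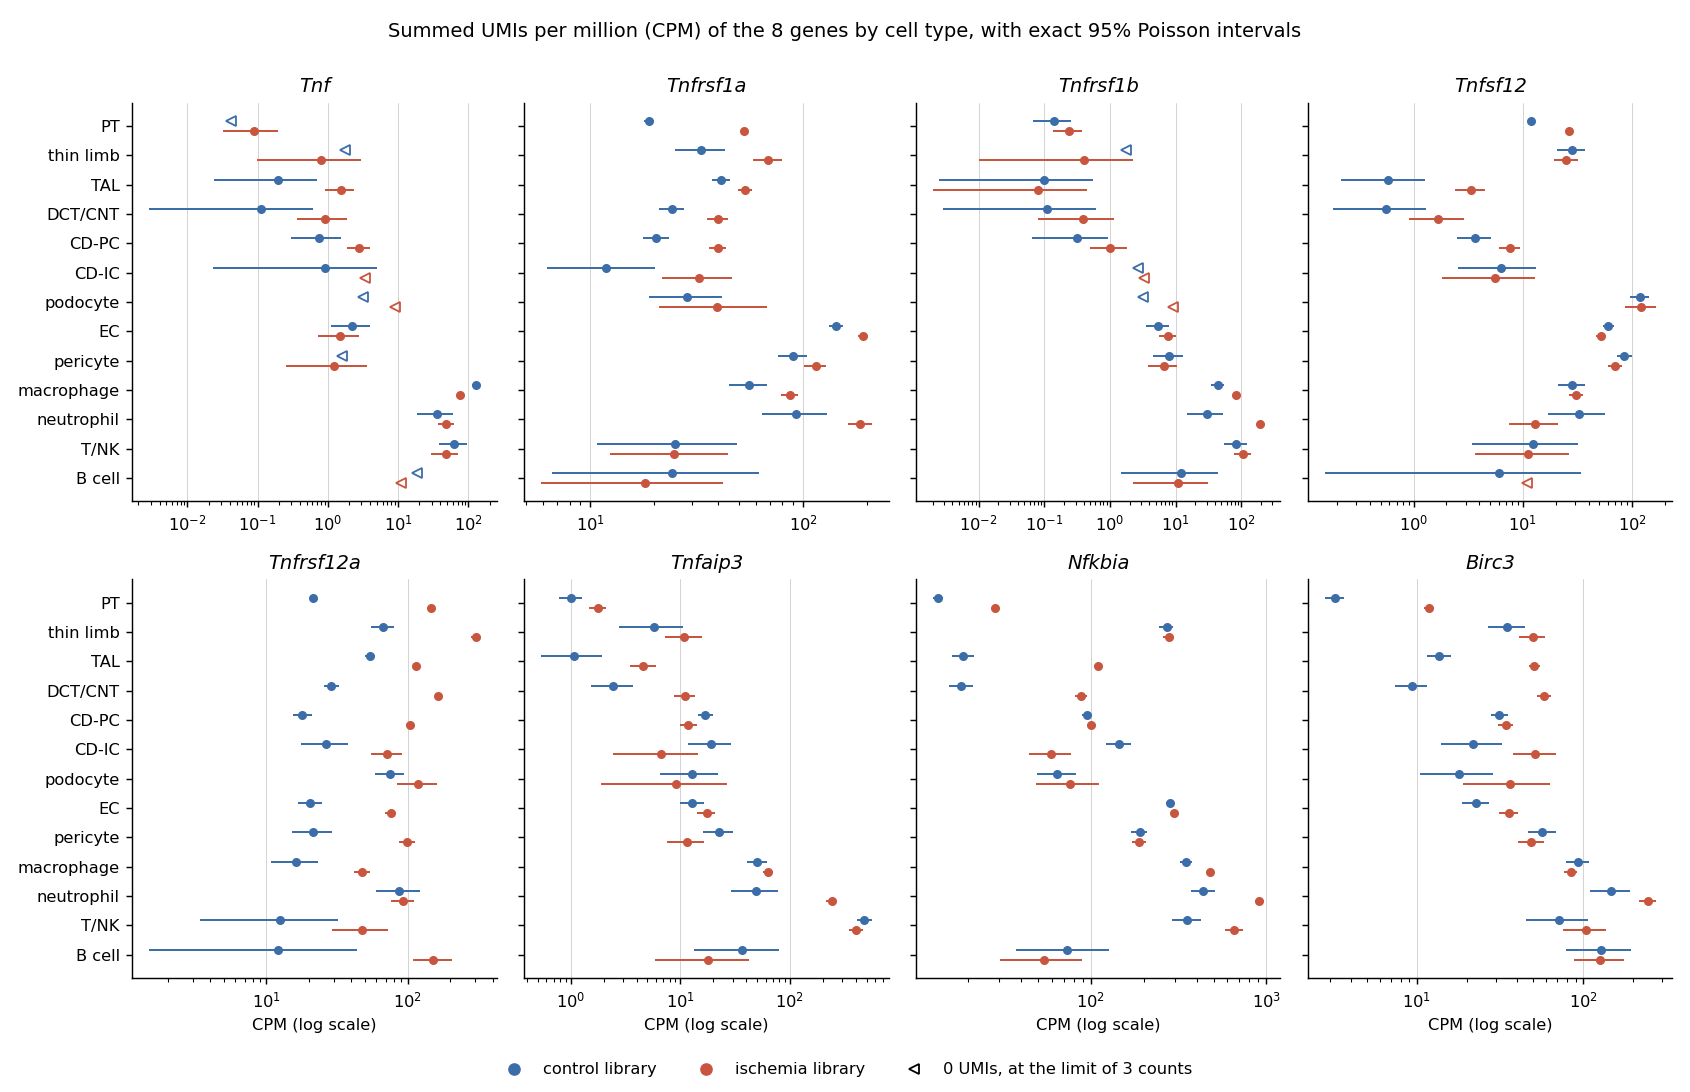
Levels of the 8 genes in CPM on a log scale in each named cell type, control and ischemia side by side, with exact 95% counting intervals and open triangles at the limit of 3 counts where a type had 0 UMIs. Tnf is highest in macrophage-like cells, Tnfsf12 in podocyte-like cells and Tnfrsf1a in EC-like cells in both libraries.

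Tnfrsf1a, the broad TNF receptor, was higher in the ischemic kidney in each of the 9 types with at least 50 UMIs, with ratios from 1.28 to 2.80. The largest ratio was in PT-like cells, at 18.9 CPM in control (17.9 to 20.0) and 52.9 CPM in ischemia (51.2 to 54.7), a ratio of 2.80 (2.63 to 2.98). In the 3 PT clusters taken separately the ratios were 2.70, 2.94 and 2.89. EC-like cells had the highest level in both kidneys, 143 and 191 CPM (ratio 1.33, 1.22 to 1.46), lying apart from neutrophil-like cells in control but not in ischemia. Pericyte-like cells (89.4 and 115 CPM, with a ratio of 1.28, or of 2.07 at a higher clustering resolution) and macrophage-like cells (55.5 and 86.7 CPM, ratio 1.56) followed. Other tubule segments had ratios of 2.06 in thin limb-like, 1.94 in CD-PC-like, 1.65 in DCT/CNT-like and 1.29 in TAL-like cells. Neutrophil-like cells were at 92.6 and 185 CPM (ratio 2.0, 1.39 to 2.96), and 5 cells held 17 of their 34 control UMIs. PT-like cells held 37.9% of the Tnfrsf1a UMIs of the control and 45.0% of the ischemia library.

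Tnfrsf1b, the second TNF receptor, was found mostly in leukocyte-like cells, with low levels in EC-like, pericyte-like and B-like cells. T/NK-like cells led in control at 84.3 CPM, and held 106 CPM in ischemia (ratio 1.26, 0.766 to 2.10). Macrophage-like cells were at 44.4 CPM in control (35.2 to 55.2) and 83.0 CPM in ischemia (75.5 to 91.1), a ratio of 1.87 (1.47 to 2.40). Sub-clusters 1 and 2 by themselves did not show this difference, since sub-cluster 1 held 36.1 and 35.9 CPM, and sub-cluster 2 held 197 and 137 CPM (ratio 0.695, 0.456 to 1.11). Sub-cluster 2, which had 19 cells in control and 269 in ischemia, was thus highest for Tnfrsf1b in both kidneys. Its Tnf level was below that of sub-cluster 1 in both. Against sub-cluster 3 it was lower in ischemia (ratio 0.306, 0.193 to 0.488), while in control the interval held 1 (1.38, 0.440 to 3.77). Neutrophil-like cells held 30.0 CPM in control (11 UMIs) and 196 CPM in ischemia (240 UMIs), a ratio of 6.54 (3.59 to 13.3). Leaving out the 5 cells with most UMIs in each library gave 19.0 here. This took out 5 of 33 control and 5 of 208 ischemia cells, a larger part of the control side. Clustering without integration gave 3.03. TAL-like cells held 0.0978 and 0.0797 CPM, PT-like cells 0.139 and 0.235 CPM. After thinning, 4.95% and 8.64% of macrophage-like cells and 6.06% and 21.4% of neutrophil-like cells had a UMI. The neutrophil-like clusters also held pericyte markers at 267 CPM in control against 1347 CPM in ischemia, whose part in these ratios was not tested.

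Tnfrsf12a, the TWEAK receptor Fn14, had the largest ratio of the 8 genes in PT-like cells and was higher in ischemia in 10 of the 11 types with at least 50 UMIs. PT-like cells stood at 21.3 CPM in control against 147 CPM in ischemia, a ratio of 6.91 (6.55 to 7.30), and the 3 PT clusters gave 7.51, 6.52 and 6.63. After thinning, 1.87% of control and 12.1% of ischemia PT-like cells had a UMI. DCT/CNT-like cells were at 28.8 and 164 CPM (ratio 5.70, 4.99 to 6.55), CD-PC-like cells at 18 and 104 CPM (5.76) and thin limb-like cells at 66.9 and 303 CPM (4.53). TAL-like cells had a smaller ratio, at 54.4 and 114 CPM (2.10, 1.91 to 2.32). With a limit of 25% mitochondrial UMIs, which left 127 control and 246 ischemia TAL-like cells, that ratio was 1.20. In control the TAL-like level was above that of DCT/CNT-like cells, and in ischemia it was below it.

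The receptor was also higher outside the epithelium. EC-like cells were at 20.4 and 76.0 CPM (ratio 3.72, 3.0 to 4.65), pericyte-like cells at 21.3 and 98.6 CPM (4.63) and macrophage-like cells at 16.1 and 47.6 CPM (2.96, 2.01 to 4.51). Neutrophil-like cells did not differ within counting error (ratio 1.06), and 27 of their 32 control UMIs were in 5 cells. The ratio was 2.72 without the 5 cells with most UMIs in each library, 5 of 33 control and 5 of 208 ischemia cells. Havcr1, the gene of the tubular injury protein Kim-1, is best known from injured proximal tubule, and its level was higher in these cells too. It stood at 7.13 and 417 CPM in PT-like cells, 1.80 and 103 CPM in EC-like cells and 2.22 and 61.6 CPM in macrophage-like cells. In the ischemic kidney Tnfrsf12a was counted at 35.3 UMIs per 100 Havcr1 UMIs in PT-like cells, at 41.2 in T/NK-like cells, 73.6 in EC-like cells, 77.3 in macrophage-like cells, 117 in neutrophil-like cells and 174 in pericyte-like cells. B-like cells had 161.5 and podocyte-like cells 243.8. Of the other tubule cells, thin limb-like cells had 101.8, TAL-like cells 335, CD-IC-like cells 355.6, DCT/CNT-like cells 407 and CD-PC-like cells 490. The values of tubule and non-tubule cells thus overlapped. The part of free tubule RNA in the Tnfrsf12a level of non-tubule cells was not tested beyond these values. The scavenger receptor Cd163, which can bind TWEAK, was rare, at 11.1 and 10.9 CPM in macrophage-like cells (20 and 59 UMIs).

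**Figure D3:**
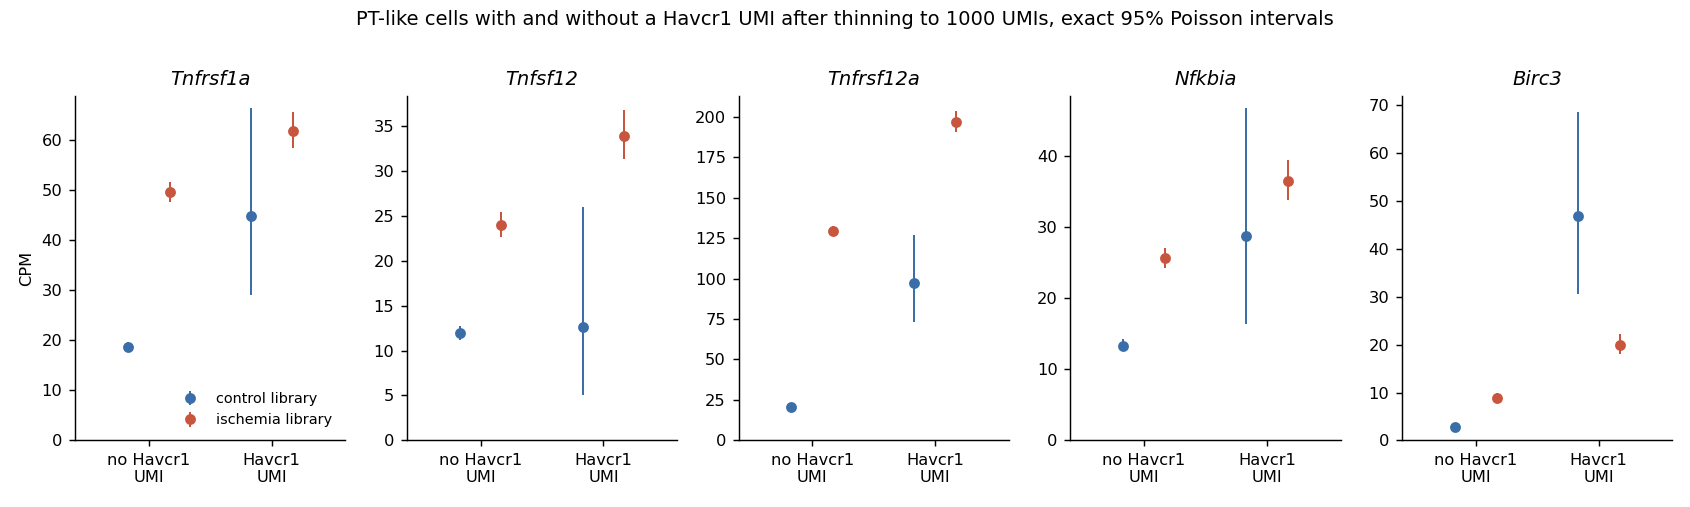
Levels in CPM of member genes in PT-like cells with and without a Havcr1 UMI after thinning to 1000 UMIs, in both libraries, with exact 95% intervals. Tnfrsf12a is at 20.6 and 129 CPM in Havcr1-negative control and ischemia cells and at 97.2 and 197 CPM in Havcr1-positive ones.

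Dividing PT-like cells by Havcr1 separated the members further. With a Havcr1 UMI after thinning there were 24 control and 675 ischemia cells, against 3729 and 2097 without, called Havcr1-negative here. The negative cells are not cells without Havcr1, since over all their UMIs they held it at 4.22 CPM in control against 188 CPM in ischemia (300 and 9425 UMIs). Tnfrsf12a in them was at 20.6 CPM in control against 129 CPM in ischemia (ratio 6.27, 5.92 to 6.64). Among ischemia cells the Havcr1-positive ones held 1.52 times the Tnfrsf12a level of the negative ones (1.46 to 1.59) and 2.23 times the Birc3 level (1.94 to 2.57). In control the 24 positive cells held 4.72 times the Tnfrsf12a level (3.53 to 6.19) and 16.4 times the Birc3 level (46.8 against 2.85 CPM, 10.5 to 24.7). They also held 3 Tnfrsf1b UMIs against 7 in the negative cells (5.40 against 0.0984 CPM, 54.8, 9.15 to 240). Whether other cell types are mixed into these 24 cells was not tested. Between kidneys, Birc3 in the positive cells was lower in ischemia, at 46.8 and 20.0 CPM (26 and 358 UMIs, ratio 0.427, 0.287 to 0.663). The control side of that ratio is 24 cells, and its interval does not cover the spread between cells. Of positive over negative cells, Nfkbia showed ratios of 2.15 in control and 1.42 in ischemia, and Tnfrsf1a 2.40 and 1.25. The Tnfaip3 ratios were 3.66 in control (0.434 to 13.7, 2 UMIs in positive cells) and 0.889 in ischemia (0.564 to 1.36). Both Tnfaip3 intervals hold 1. Tnfsf12 had a ratio of 1.41 (1.28 to 1.56) in ischemia and 1.05 (0.423 to 2.18) in control, where the positive cells held 7 UMIs, and whether these ratios differ was not tested.

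Nfkbia, the IkBa gene, was highest in leukocyte-like cells, while its largest ratios were in distal tubule segments. Neutrophil-like cells stood at 436 and 912 CPM (ratio 2.09, 1.77 to 2.49), T/NK-like cells at 353 and 655 CPM (1.86, 1.49 to 2.33) and macrophage-like cells at 347 and 478 CPM (1.38, 1.26 to 1.5). In control these 3 types were not told apart, and in ischemia each lay apart from the next. TAL-like cells were at 18.8 CPM in control against 111 CPM in ischemia, a ratio of 5.89 (5.06 to 6.88). DCT/CNT-like cells were at 18.3 and 88.2 CPM (4.81, 4.05 to 5.74) and PT-like cells at 13.5 and 28.6 CPM (2.12, 1.96 to 2.29). These 3 segments were the lowest types in control and had the largest ratios. The DCT/CNT ratio was 2.84 without integration, where the cluster of that name had a median of 3684 UMIs against 20884 in the main clustering. Levels in EC-like cells (282 and 299 CPM, 1.06, 0.990 to 1.14), thin limb-like cells (270 and 277 CPM) and pericyte-like cells (190 and 189 CPM) had intervals that hold 1. The pericyte ratio was 1.52 at a higher clustering resolution. CD-PC-like cells were at 95.4 and 101 CPM (1.05), or at a ratio of 0.620 with the gate on marker UMIs. CD-IC-like cells went the other way, at 144 and 59.2 CPM (0.410, 0.294 to 0.563), and 118 of their 159 control UMIs were in 5 cells. The EC ratio was 0.818 with the gate. The smaller EC cluster held 453 CPM against 259 CPM in the larger one in control.

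Tnfaip3 was led by T/NK-like cells in both kidneys, at 477 CPM in control against 403 CPM in ischemia (ratio 0.844, 0.676 to 1.05), apart from the next type. Neutrophil-like cells stood at 49.0 CPM (18 UMIs) and 241 CPM (295 UMIs), a ratio of 4.91 (3.05 to 8.4). Without integration that ratio was 2.87. It was 22.0 without the 5 cells with most UMIs in each library, 5 of 33 control and 5 of 208 ischemia cells. Macrophage-like cells were at 50.5 and 63.1 CPM (1.25, 0.989 to 1.59), with sub-cluster 1 at 55.9 and 97.9 CPM (1.75, 1.3 to 2.38) and sub-cluster 2 at 60.1 and 45.3 CPM (0.754, 0.355 to 1.92). The mean over cells gave 0.955 for the whole type. In the distal tubule, TAL-like cells were at 1.08 and 4.62 CPM (4.30, 2.23 to 9.08) and DCT/CNT-like cells at 2.46 and 11.0 CPM (4.49, 2.78 to 7.54). The DCT/CNT ratio was 2.67 with the gate on marker UMIs and 0.930 in the clustering without integration. The cluster named DCT/CNT there differed, with 1206 cells and a median of 3684 UMIs, against 814 and 20884 in the main clustering. It was led by Pvalb and Klk1b9, as was the smaller unnamed cluster of the main clustering, with a median of 3945 UMIs. The value of 0.930 is thus not a second reading of the same cells. PT-like cells were at 1.0 and 1.76 CPM (1.76, 1.3 to 2.39), with 2.38 in the first PT cluster and 0.994 (0.553 to 1.78) in another. CD-PC-like cells were lower in ischemia, 16.9 and 11.8 CPM (0.70, 0.550 to 0.889), and at a ratio of 0.412 with the gate. Pericyte-like cells were at 22.4 and 11.5 CPM (0.515, 0.307 to 0.850), from 42 and 28 UMIs of which 5 cells held 59.5% and 57.1%. That ratio was 5.09 at a higher clustering resolution and 2.90 with the gate on marker UMIs. EC markers in the pericyte-like cluster stood at 1937 and 1358 CPM, and their part in it was not tested.

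Birc3 was highest in neutrophil-like cells (147 and 245 CPM, ratio 1.66) and B-like cells (128 and 126 CPM). Macrophage-like cells did not differ within counting error, at 92.7 and 84.3 CPM (0.910, 0.761 to 1.09). DCT/CNT-like, TAL-like and PT-like cells again had the largest ratios, with DCT/CNT-like cells at 9.27 and 58.2 CPM (6.27, 4.95 to 8.03). TAL-like cells were at 13.6 and 50.9 CPM (3.75, 3.11 to 4.53) and PT-like cells at 3.19 and 11.9 CPM (3.72, 3.20 to 4.32). Ratios were smaller in CD-IC-like (2.36, 1.41 to 4.04) and thin limb-like cells (1.42, 1.04 to 1.97). EC-like cells were at 22.6 and 35.7 CPM (1.58, 1.26 to 1.99). CD-PC-like (1.09) and pericyte-like cells (0.859) had intervals that hold 1, and these ratios became 0.432 and 1.38 with the gate on marker UMIs. PT-like cells remained the lowest type for Birc3 in both kidneys.

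**Figure D4:**
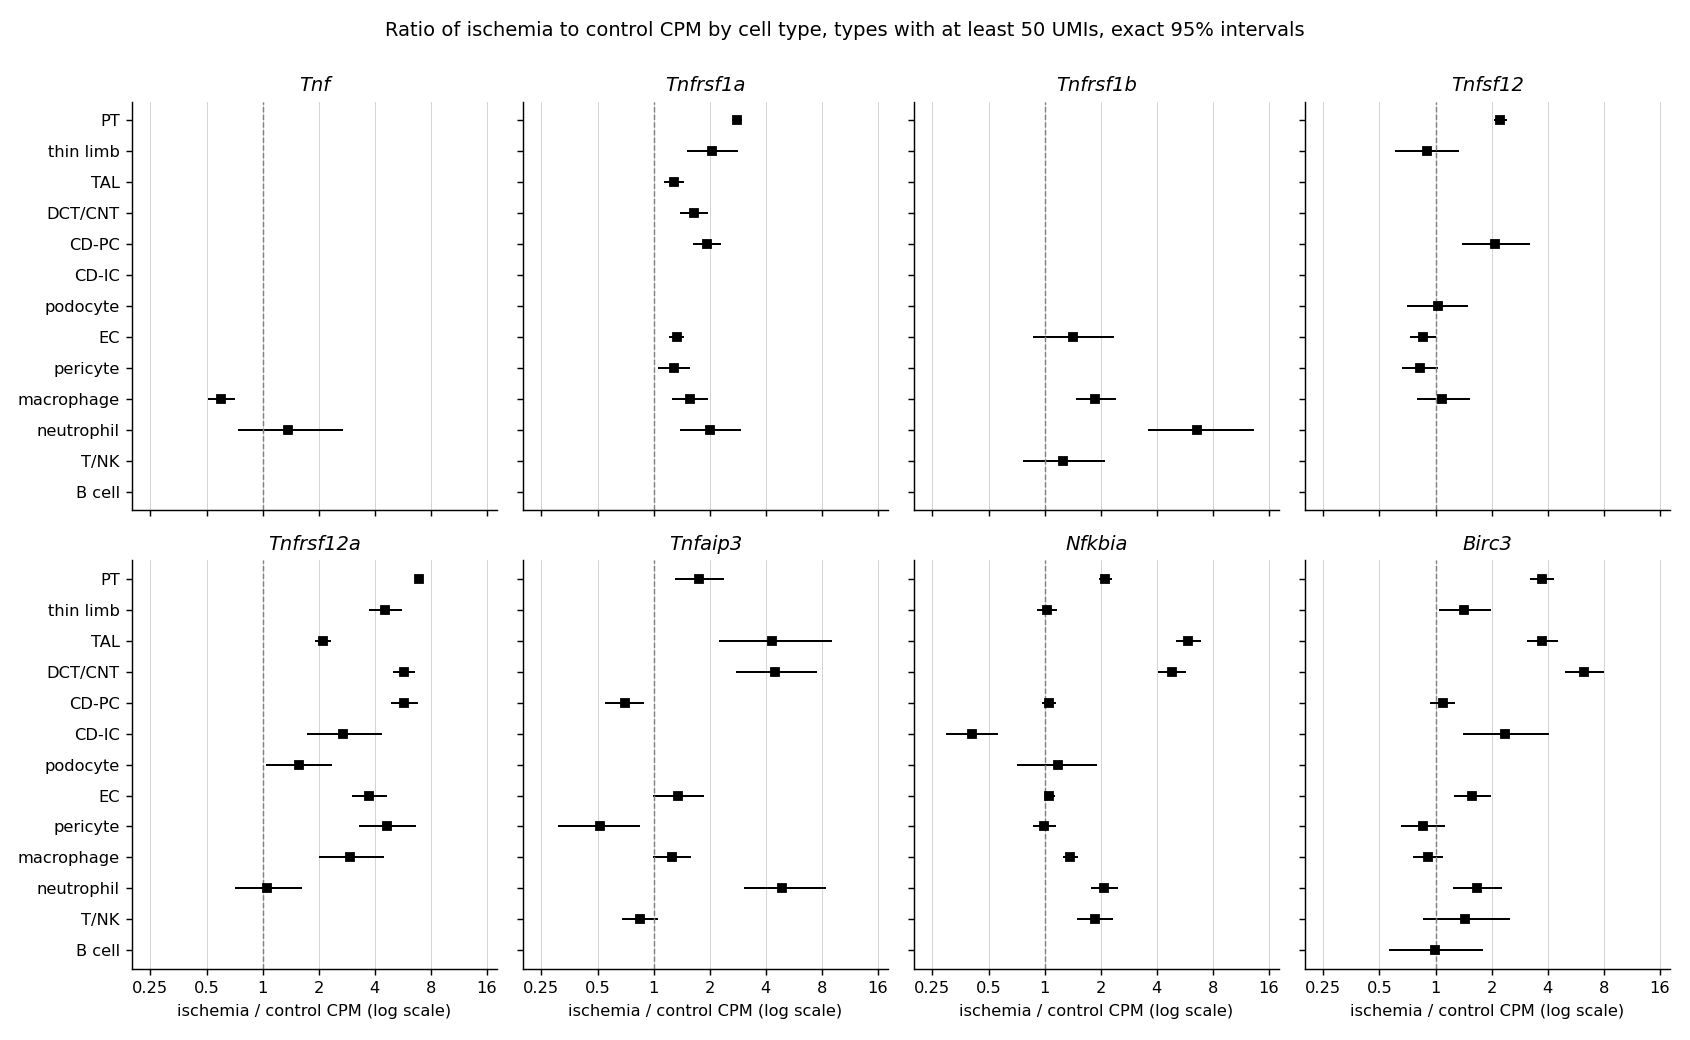
Ratio of ischemia to control CPM on a log scale for each gene in each cell type with at least 50 UMIs over both libraries, with exact 95% counting intervals. Tnfrsf12a has its largest ratio, 6.91, in PT-like cells, and Nfkbia its largest, 5.89, in TAL-like cells.

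Counted over types with at least 50 UMIs, Tnfrsf1a had an interval above 1 in 9 of 9 types, Tnfrsf12a in 10 of 11, Birc3 in 7 of 12, Nfkbia in 6 of 12, Tnfaip3 in 4 of 9, Tnfsf12 in 2 of 7 and Tnfrsf1b in 2 of 4. Intervals below 1 occurred for Tnf in 1 of 2 types, Nfkbia in 1 of 12 and Tnfaip3 in 2 of 9. The share of all genes with such intervals was not computed, so these counts are not read as traits of the members. With many UMIs an interval can exclude 1 at a small ratio, such as 1.28 for Tnfrsf1a in pericyte-like cells. The 2 unnamed clusters, one of them of cells with median UMIs of 895 and 796, had Tnfrsf12a ratios of 8.68 (7.28 to 10.4) and 3.45 (2.97 to 4.01), and Birc3 ratios of 2.96 and 5.58.

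The members were also counted beside all genes with at least 50 UMIs over both libraries in a type. These counts are a description, since the members were chosen with earlier results of these data known. Tnf and Tnfrsf1b did not pass in tubule and pericyte-like cells, Tnf not in EC-like cells, and Tnfsf12 not in TAL-like, DCT/CNT-like and neutrophil-like cells. In PT-like cells 5 of 6 passing members were at least 2-fold higher, where 6.88% of all passing genes were and 3.94% were at least 2-fold lower. The figures were 4 of 5 members against 7.88% in TAL-like cells (7.54% lower) and 4 of 5 against 6.54% in DCT/CNT-like cells (4.69% lower). CD-PC-like cells had 2 of 6 against 5.83% (4.51% lower), EC-like cells 1 of 7 against 1.91% (3.33% lower) and pericyte-like cells 1 of 6 against 2.17% (2.36% lower). Macrophage-like cells had 1 of 8 against 5.58% (4.82% lower). Neutrophil-like cells had 4 of 7 against 15.9% (8.69% lower). Members at least 2-fold lower numbered 0 in each of the 8 types. With a limit of 25% mitochondrial UMIs, members at least 2-fold higher numbered 3 in PT-like and 2 in neutrophil-like cells. The share of all genes was not computed at that limit.

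The other 82 genes of the pathway, in 5 lists, were described the same way, by counts and medians. The lists too were chosen with earlier results of these data known. Each count below stands beside the share of all passing genes at least 2-fold higher in that type. This share was 6.88% in PT-like, 7.88% in TAL-like, 6.54% in DCT/CNT-like and 5.83% in CD-PC-like cells. It was 1.91% in EC-like, 2.17% in pericyte-like, 5.58% in macrophage-like and 15.9% in neutrophil-like cells. Of the 5 NF-kB subunit genes, all 5 were at least 2-fold higher in PT-like cells, 4 in TAL-like, 4 in DCT/CNT-like and 3 in neutrophil-like cells, and 0 in CD-PC-like, EC-like, pericyte-like and macrophage-like cells. Relb, a subunit of the non-canonical pathway that TWEAK is known to activate, was at 1.44 and 7.16 CPM in PT-like cells (ratio 4.99, 4.03 to 6.23), 5.98 times higher in TAL-like and 6.95 times in DCT/CNT-like cells. Nfkb2, which encodes its partner, had ratios of 3.73 in PT-like and 5.15 in DCT/CNT-like cells. In macrophage-like cells Relb was at 39.9 and 48.5 CPM (1.21, 0.933 to 1.6).

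Among 15 further feedback inhibitors, 3 of 13 passing genes were at least 2-fold higher in PT-like cells, 2 of 13 in TAL-like, 6 of 13 in DCT/CNT-like, 2 of 14 in EC-like and 5 of 12 in neutrophil-like cells, with 0 of 15 in macrophage-like cells. Beside the share of all genes, 7.88%, the count of 2 in TAL-like cells is too small to be read as higher. Nfkbie, another IkB protein gene, had a ratio of 5.21 in TAL-like and 21.2 (8.74 to 66.7, 5 control UMIs) in DCT/CNT-like cells, and Bcl3 one of 4.23 in PT-like cells. Otulin and Itch, ubiquitin pathway genes, were near 1 in the same cells, at 1.15 and 0.864 in PT-like cells. Of 22 adaptors and kinases, 0 were at least 2-fold higher in PT-like, TAL-like, EC-like and macrophage-like cells, and 1 (Birc2) in DCT/CNT-like cells.

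The list of known NF-kB targets included chemokine and adhesion molecule genes. At least 2-fold higher were 12 of 16 passing targets in PT-like cells, 8 of 13 in TAL-like and 9 of 13 in DCT/CNT-like cells, against 5 of 14 in CD-PC-like, 6 of 16 in EC-like, 2 of 14 in pericyte-like and 3 of 15 in macrophage-like cells. In neutrophil-like cells 4 of 14 were at least 2-fold higher and 4 of 14 at least 2-fold lower, with a median ratio of 0.902. Of all genes in these cells, 15.9% were at least 2-fold higher and 8.69% at least 2-fold lower. Among the lower ones were Cxcl10, a chemokine gene (0.217, 0.158 to 0.296), and Vcam1, an adhesion molecule gene (0.295, 0.204 to 0.426). The control side was 33 cells. In neutrophil-like cells PT markers summed to 2105 CPM in control and 1170 CPM in ischemia, and thin limb markers to 1059 and 713 CPM. Pericyte markers went the other way, as given above. The part of other cells' RNA in these ratios was not tested. The median target ratio was 4.07 in PT-like cells, 2.08 in TAL-like and 2.86 in DCT/CNT-like cells, beside 2.51, 2.83 and 3.56 for the NF-kB subunits. Ccl20, a chemokine gene, was counted with 2 and 321 UMIs in PT-like cells (ratio 169, 46.5 to 1405) and with 4 and 629 in DCT/CNT-like cells (183, 71.0 to 673). Cxcl2, a neutrophil chemoattractant, was at 446 and 1242 CPM in macrophage-like cells (2.78) and at 403 and 3422 CPM in neutrophil-like cells (8.49). Ccl2, a monocyte chemoattractant, was at 137 and 846 CPM in macrophage-like cells (6.18, 5.43 to 7.05). Sod2, a mitochondrial antioxidant enzyme gene, went the other way, with ratios of 0.397 in TAL-like and 0.508 in DCT/CNT-like cells. Over all macrophage-like cells Tnf was thus lower by CPM while Cxcl2 and Ccl2 were higher. Their makeup differed between the kidneys, with 19 control and 269 ischemia cells in sub-cluster 2. With the sub-cluster mix of control the Tnf ratio was 0.98, a value that joins sub-cluster ratios on both sides of 1. Cxcl2 and Ccl2 were not split by sub-cluster, so whether they and Tnf differed in the same cells was not tested.

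**Figure D5:**
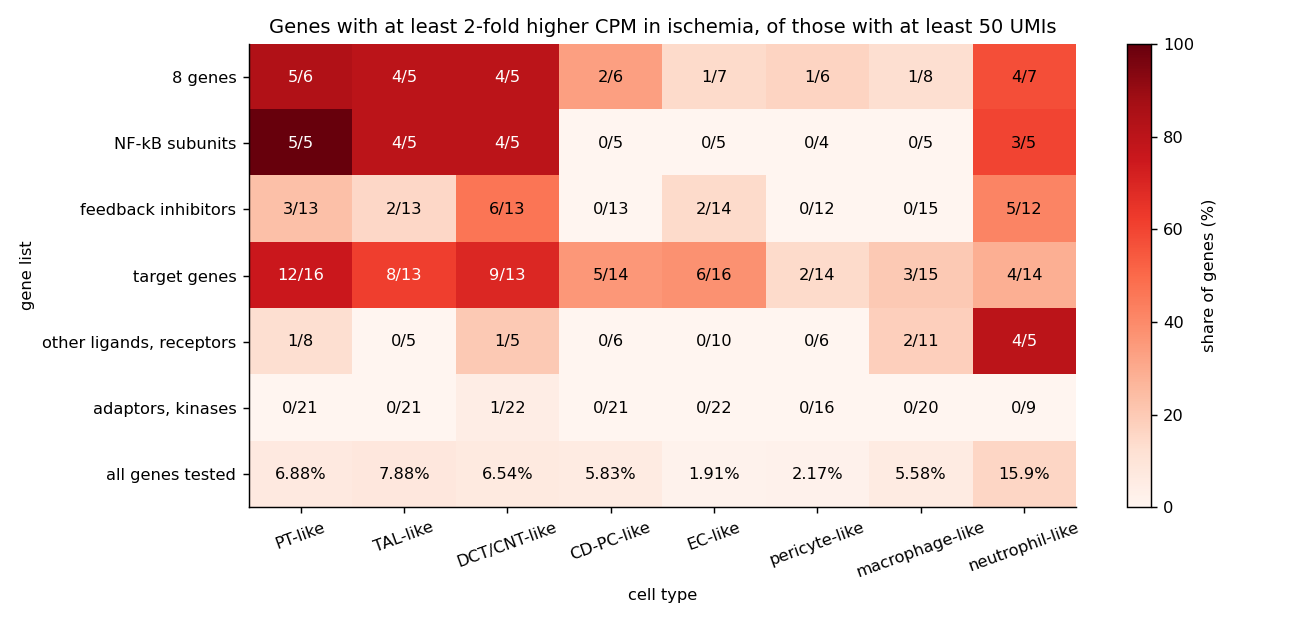
Genes at least 2-fold higher in ischemia in each gene list (rows) and cell type (columns), as counts of those with at least 50 UMIs, with the share in % as colour and the share over all genes in the last row. All 5 NF-kB subunit genes are at least 2-fold higher in PT-like cells and 0 in macrophage-like cells.

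Of the related ligands and receptors, 1 of 8 was at least 2-fold higher in PT-like cells, 1 of 5 in DCT/CNT-like and 2 of 11 in macrophage-like cells. Counts this small are not read as above the shares of all genes, 6.88%, 6.54% and 5.58%. The count was 0 in TAL-like, CD-PC-like, EC-like and pericyte-like cells. Neutrophil-like cells had 4 of 5, with a median ratio of 3.52, beside 15.9% of all genes, from 33 control cells. In macrophage-like cells 2 of 11 were at least 2-fold lower, beside 4.82% of all genes. Tnfsf13, the APRIL gene, was at 15.0 and 55 CPM in macrophage-like cells (3.67, 2.47 to 5.66), and Ltb, which encodes a lymphotoxin subunit, at 23.3 and 9.78 CPM (0.420, 0.275 to 0.645). Over all 82 genes, 21 of 63 were at least 2-fold higher in PT-like cells, beside 6.88% of all genes. The median ratio there was 1.55 beside 1.08 over all genes. The median was 1.44 beside 1.07 in TAL-like, 1.51 beside 1.06 in DCT/CNT-like, 0.987 beside 0.993 in CD-PC-like and 1.17 beside 1.08 in macrophage-like cells. It was 1.1 beside 0.991 in EC-like and 1.04 beside 1.02 in pericyte-like cells. Neutrophil-like cells had the highest median of the 8 types, 1.69 beside 0.949, with 16 of 45 genes at least 2-fold higher and 5 at least 2-fold lower. Of all genes in them, 15.9% were at least 2-fold higher and 8.69% at least 2-fold lower.

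Across 26 groups of 1 cell type in 1 library, the patterns of 7 members were compared with 12478 genes by Pearson correlation of log2(CPM + 1), as a description, since groups share libraries and depth. Tnf was most like Ltb4r1 (0.973), Atp8b4 and Lcp2, and Tnfrsf1b most like Akna (0.968), Apbb1ip and Cyth4. Nearest to Tnfrsf1a were Vcam1 (0.852), Lrg1 and Oasl2. Tnfsf12 had Fxr1 (0.852), Cant1 and Nes, and Tnfaip3 had Creb1 (0.923), Cyld and Arl5b. Nfkbia was nearest to Cap1 (0.888), Pak2 and Skil, and Birc3 to Dapp1 (0.910), Btg1 and Relb (0.875), itself a gene of the pathway lists. Between members, Tnf and Tnfrsf1b correlated at 0.843, Tnfrsf1b and Tnfaip3 at 0.872 and Tnfaip3 and Nfkbia at 0.799, while TWEAK and its receptor gene stood at 0.00814.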

How the data were processed

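Single cell transcriptomes of 1 control and 1 ischemic kidney were analysed. Per the labels, kidneys were digested with enzymes and libraries made with a droplet kit that reads transcript ends, and the submitters' processing notes name Cell Ranger 7.0.0 and the mm10 build. The authors deposited raw UMI counts per gene and barcode, with no normalization, and whether intronic reads were counted is not given in the sources used here. Droplet counts carry free RNA from broken cells.

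A cell was kept if it had 200 genes or more, between 500 and 150000 UMIs, and no more than 55% of its UMIs from mitochondrial genes. This left 12586 of 15110 control and 13116 of 15257 ischemia barcodes. It is the filter stated in the study's methods. Cells were clustered with Seurat 5.3.0 in R 4.3.3 (normalization to 10000, 2000 variable genes, anchor integration, 30 principal components, resolution 0.3, seed 42). The 8 genes and the pathway genes were left out of the variable genes, and types were named from marker lists. Scrublet called 0.0% of cells doublets in each library, which was taken to mean that the calling had not worked. No cells were removed as doublets, and leaving out the cells with the highest scores was tried instead. Clusters were rebuilt here, so their names may differ from the study's.

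Counts were summed per type and library with Python 3.11.15, numpy 2.4.6, scipy 1.17.1, pandas 2.3.3 and scanpy 1.11.5. Levels carry exact Poisson intervals and ratios exact conditional intervals at 95%, and shares exact Clopper-Pearson intervals. They cover counting error only. Shares of cells with a UMI were also computed after thinning cells to 1000 UMIs. Scripts were tested on simulated data. The genes and lists were chosen with earlier results of these data known. Named beside the 8 genes were Havcr1 and Cd163, genes from the highest and lowest 2 ratios of each pathway list in each type among genes with at least 50 UMIs, and the 3 genes most like each member among those with at least 500 UMIs, over groups of at least 20 cells. The genes most like Tnfrsf12a are not reported here. Birc2 and the genes leading macrophage sub-clusters were named after their values were seen. Alternatives changed the filters, clustering, gate, averaging and scaling. Leaving out the 5 cells with most UMIs, scaling without mitochondrial UMIs and the fixed sub-cluster mix were chosen after seeing the data.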

Additional observations from a re-analysis of the deposited data

Results flagged for a closer look

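Tnfaip3 and Nfkbia are listed here because their ratios of ischemia to control lay on opposite sides of 1 in different cell types, with counting intervals that exclude 1. With 1 library per condition, the difference between types was not tested. Tnfaip3 was lower in ischemia in CD-PC-like cells (ratio 0.70) and pericyte-like cells (0.515), and higher in PT-like (1.76), TAL-like (4.30), DCT/CNT-like (4.49) and neutrophil-like cells (4.91). The pericyte and DCT/CNT ratios turned under other clusterings, as given below, the latter where the name DCT/CNT fell on a different cluster.

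Nfkbia was lower in ischemia in CD-IC-like cells (0.410), where 118 of the 159 control UMIs were in 5 cells. It was higher in PT-like (2.12), TAL-like (5.89), DCT/CNT-like (4.81), macrophage-like (1.38), neutrophil-like (2.09) and T/NK-like cells (1.86).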

How the results depend on the processing

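No paired analysis was possible because each condition is 1 library. For the same reason no replicate could be left out. Of 456 values recomputed for 52 results, all of them ratios or Tnf shares, 390 stayed within the counting interval of the reported value. Another 63 moved by more, and 3 crossed a ratio of 1 where the interval of the reported ratio lay wholly on one side of it. Counts of genes are not among these values. Ratios whose reported interval held 1 crossed it too and are counted among the others. Tnfaip3 in DCT/CNT-like cells had a ratio of 0.930 without integration, and in pericyte-like cells 5.09 at resolution 0.6 and 2.90 with the gate on marker UMIs. The cluster named DCT/CNT without integration had other leading genes and a median of 3684 UMIs, against 20884 in the main clustering. The cause was not tested for these ratios or for the following.

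With the limit of 25% mitochondrial UMIs, ratios were 2.58 for Tnfrsf1a, 5.82 for Tnfrsf12a and 1.84 for Nfkbia in PT-like cells and 1.20 for Tnfrsf12a in TAL-like cells. Without integration Tnf in neutrophil-like cells was at 0.630, and CD-PC-like cells were not named and have no value. The gate gave 0.634 for Tnf in neutrophil-like cells, 1.18 for Tnfrsf1a and 0.818 for Nfkbia in EC-like cells, 1.81 for Tnfrsf12a in TAL-like cells, 1.23 for Nfkbia in macrophage-like cells and a share of 61.9% of ischemia Tnf UMIs in macrophage-like cells. It also gave 3 pathway genes at least 2-fold higher in CD-PC-like cells, 5 in EC-like and 10 in pericyte-like cells, where the main counts were 5, 8 and 2, and resolution 0.6 gave 9 in pericyte-like cells. The main counts were of 59, 67 and 52 passing genes, beside 5.83%, 1.91% and 2.17% of all genes. The share of all genes was not computed for the gate or for resolution 0.6. Counts in those settings are thus not read as a result about the pathway genes.

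The mean over cells gave 0.494 for Tnf and 0.955 for Tnfaip3 in macrophage-like cells, 6.22 for Tnfrsf12a in PT-like and 2.50 in TAL-like cells, and 0.931 for Nfkbia in EC-like cells. Without the cells of highest doublet score the last was 0.989. Tnf in macrophage-like cells was at 0.98 with the sub-cluster mix of control. Without the 5 cells with most UMIs in each library, Tnfrsf12a in PT-like cells was at 7.31, and the macrophage share of Tnf UMIs at 75.0% in control and 64.4% in ischemia. Depth limits Tnf and Tnfrsf1b in tubule cells and every member in types of few cells.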
